A study of Mus musculus with 18 samples.

Results

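Guanylate-binding proteins (GBPs) and immunity-related GTPases (IRGs) were examined through 10 of their genes, Gbp2, Gbp3, Gbp4, Gbp5 and Gbp7 of the GBPs and Irgm1, Irgm2, Igtp, Iigp1 and Ifi47 of the IRGs. They were the rows of the deposited count table whose Ensembl gene identifiers carry these symbols, 10 of 50600 gene rows, by a rule that used no measured value, although the choice of these genes was made with earlier results of these data known. All 10 were among the 15663 rows that passed the filter on low counts. Bone marrow-derived macrophages (BMDMs), cultured with recombinant GM-CSF for 8 days, were taken from wild-type (WT) mice and from mice without interferon regulatory factor 5 (IRF5 KO), a transcription factor that acts after Toll-like receptors. Each genotype gave 3 groups of 3 libraries: cells left unstimulated, cells given the vehicle DMSO for 1 h and then 100 ng/ml lipopolysaccharide (LPS) for 2 h (LPS DMSO), and cells given 3.5 μM defactinib, an inhibitor of the kinases PYK2 and FAK, for 1 h before the same LPS (LPS defactinib). The 2 genotypes compared thus share the culture, the LPS and the pretreatment time, and no group received defactinib without LPS. The methods describe male C57BL/6J mice aged 8 to 11 weeks, without saying whether the IRF5 KO animals were of the same strain, sex and age or how their allele was made. The unstimulated libraries are labelled DMSO but carry an untreated mark in the column names, so whether they received vehicle is open. The series calls the 3 libraries of a group biological replicates without naming the animals behind them. The p-values measure the spread between libraries of a group, estimated over all 6 groups together.

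GBPs and IRGs are large GTPases that cells make in response to interferons. GBPs gather on LPS, on bacteria in the cytosol and on pathogen vacuoles, and they help to activate the inflammasome. IRGs act on vacuole membranes: effectors such as Iigp1 load onto the vacuole, while Irgm1, Irgm2 and Igtp are regulators that keep effectors off the membranes of the cell itself. In macrophages given LPS, secreted interferon-β signals back to the cell through factors such as STAT2 and IRF9, which bind DNA at an element called the ISRE. A second element called GAS also answers interferons.

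In mm10, the build of the deposited table, Gbp5 (chr3:142493978-142522344), Gbp7 (chr3:142530342-142550149), Gbp3 (chr3:142560026-142573209) and Gbp2 (chr3:142620602-142638008) lie side by side on the plus strand of chromosome 3. Gbp4 lies on the minus strand of chromosome 5 (chr5:105115767-105139586). Igtp (chr11:58199556-58207591) and Irgm2 (chr11:58199618-58222782) start next to each other on the plus strand of chromosome 11, which also holds Ifi47 (chr11:49076587-49096974, plus strand) and Irgm1 (chr11:48861968-48871683, minus strand). Igtp and Irgm2 share 162 exon bases on the same strand, 8.01% of the exon length of Igtp and 4.39% of that of Irgm2. Gbp7 shares 637 bases (11.3%) with the gene model Gm43802, Ifi47 shares 111 bases with Olfr56, and Gbp4 shares 61 bases with Gbp8 and 60 with Gbp9. Read pairs that lie over such bases alone cannot be told apart between both genes, so these levels are uncertain to that extent.

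The stretches before the transcription starts are shown because the members move together and because the elements that answer interferon can be read in them. RefSeq promoters on GRCm38.p6, which has the coordinates of mm10, were used for 8 of the 10 members, and Iigp1 was left out of the search. The 250 bases before the start were searched on both strands for an ISRE (GAAA, any 2 bases, GAAA), a GAS (TTC, any 3 bases, GAA) and a kB site (GGG, any 2 bases, TTTCC), the element of NF-kB. The sequences run 5′ to 3′ on the strand of the gene, and capitals mark matches to any of the 3 motifs, which may lie on the other strand. Gbp3, Gbp5, Gbp7, Igtp and Irgm2 are shown for the bases before the start that lie under no annotated exon of the gene. The RefSeq starts of Gbp2, Gbp3, Gbp5, Irgm1 and Irgm2 lie inside the genes as annotated in the deposited table, downstream of the gene starts on their strands. Gbp2 and Irgm1, whose matches lie under annotated exons, are shown as 30 bases around the match.
Gbp2 (chr3:142620594-142620623, plus strand): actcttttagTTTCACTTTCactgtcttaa
Gbp3 (chr3:142559794-142560025, plus strand): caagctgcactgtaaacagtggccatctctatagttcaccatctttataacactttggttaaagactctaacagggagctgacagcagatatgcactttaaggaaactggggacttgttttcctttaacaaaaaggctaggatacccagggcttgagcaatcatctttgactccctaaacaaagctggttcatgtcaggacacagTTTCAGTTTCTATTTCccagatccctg
Gbp5 (chr3:142496684-142496899, plus strand): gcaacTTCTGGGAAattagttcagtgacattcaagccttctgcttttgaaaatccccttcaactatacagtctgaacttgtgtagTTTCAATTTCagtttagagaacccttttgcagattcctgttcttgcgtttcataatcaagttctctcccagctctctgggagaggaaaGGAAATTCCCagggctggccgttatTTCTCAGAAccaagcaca
Gbp7 (chr3:142530086-142530335, plus strand): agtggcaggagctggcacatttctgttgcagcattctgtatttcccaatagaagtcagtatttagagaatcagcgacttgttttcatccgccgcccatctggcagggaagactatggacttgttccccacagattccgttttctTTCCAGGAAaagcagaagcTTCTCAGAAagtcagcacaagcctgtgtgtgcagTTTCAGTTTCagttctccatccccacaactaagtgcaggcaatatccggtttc
Igtp (chr11:58199306-58199555, plus strand): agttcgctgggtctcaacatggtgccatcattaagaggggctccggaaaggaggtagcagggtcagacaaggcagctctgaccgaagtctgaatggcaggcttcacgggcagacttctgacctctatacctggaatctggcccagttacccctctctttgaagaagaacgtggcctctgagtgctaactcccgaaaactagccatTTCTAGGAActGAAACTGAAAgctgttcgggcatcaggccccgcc
Irgm2 (chr11:58214727-58214976, plus strand): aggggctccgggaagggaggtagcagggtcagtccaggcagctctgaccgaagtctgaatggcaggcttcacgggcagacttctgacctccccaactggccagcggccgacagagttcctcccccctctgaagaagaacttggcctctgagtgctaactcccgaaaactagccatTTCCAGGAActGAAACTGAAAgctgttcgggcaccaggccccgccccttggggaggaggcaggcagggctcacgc
Irgm1 (chr11:48871428-48871457, minus strand): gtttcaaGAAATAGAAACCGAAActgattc

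An ISRE match was found in 7 of the 8 members searched, against 2.98% of the 32851 RefSeq promoters of the same length. It began 59 bases before the start in Gbp2, 45 and 39 in Gbp3 (overlapping matches), 165 in Gbp5, 53 in Gbp7, 34 in Igtp, 64 in Irgm2, and 30 and 24 in Irgm1 (overlapping matches). GAS matches were found in 4 of the 8, namely Gbp5, Gbp7, Igtp and Irgm2, against 7.02% of all promoters. The GAS match began 45 bases before the start in Igtp and 75 in Irgm2, just ahead of the ISRE match, and 81 of 84 bases around the ISRE match were identical between both genes. A kB match was found in Gbp5 alone, against 1.41% of all promoters. Ifi47 held none of the 3 motifs in this window, and neither did a second annotated start of Gbp3. These are matches of letters and not measured binding.

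**Figure D1:**
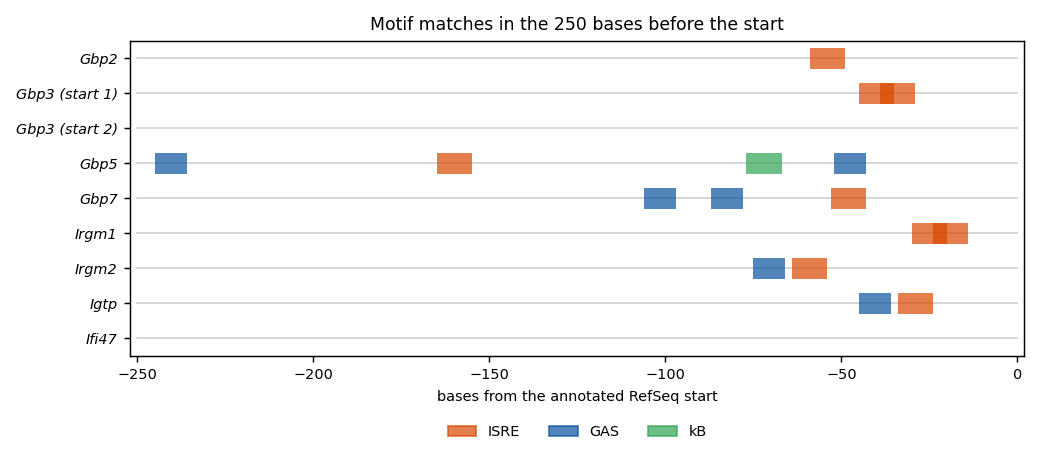
Positions of ISRE, GAS and kB matches (coloured blocks, width to scale) in the 250 bases before the annotated RefSeq start of each member searched. The x axis is the distance from the start in bases, and the 2 starts of Gbp3 are drawn separately. ISRE matches begin 165 bases before the start in Gbp5 and 24 to 64 bases before it in the other members that hold one.

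The libraries held 39282181 to 61949143 counted read pairs. Levels are given as CPM, the counts divided by the TMM-scaled library total and put on a common scale, and 1 read pair was worth 0.0156 to 0.0266 CPM. The tests were edgeR quasi-likelihood tests over all genes, and a gene was called at an adjusted p below 0.05 and a log2 fold change beyond 1. Irf5, listed as a check of the labels, was at 587 to 650 CPM in WT unstimulated and at 335 to 397 CPM in IRF5 KO unstimulated libraries. Its log2 fold change between WT and IRF5 KO after LPS was at most 0.159 with DMSO and at most -0.423 with defactinib. It was thus not lower in IRF5 KO with defactinib. The deleted part cannot be read from counts over the whole gene, so these counts do not check the genotype labels. Markers of macrophages summed to 9368 to 18770 CPM, with all 7 of 7 detected, and those of T, NK and B cells to at most 0.921 CPM. Markers of mast cells and basophils summed to 0.818 to 5.30 CPM in WT and to 28.2 to 53.1 CPM in IRF5 KO libraries, those of dendritic cells to 59.4 to 490 CPM and those of neutrophils to 58.0 to 237 CPM, and the part of these cells in the results was not tested. Markers of 1 cell type did not always move in the same direction, so a sum can rest on a few of them. In such bulk samples, fewer cells of a type and less RNA per cell cannot be told apart.

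A pair of libraries stood apart from their groups in the members, and the fold changes that moved most are given with and without them. In IRF5 KO LPS DMSO, Irgm1 was at 4.24 and 4.40 CPM in replicates 1 and 2 and at 140 CPM in replicate 3, and Irgm2 was at 0.364, 0.504 and 67.3 CPM. In WT LPS defactinib, Irgm1 was at 5.95 and 3.85 CPM in replicates 1 and 2 and at 48.6 CPM in replicate 3, and Gbp2 was at 415, 252 and 1198 CPM. Across genes, replicate 3 of IRF5 KO LPS DMSO differed from the others of its group by a chi-square per gene of 441 and 426, against 2.33 between replicates 1 and 2, where sampling noise alone gives 1. For replicate 3 of WT LPS defactinib these values were 140 and 183, against 84.1. In the 3 IRF5 KO LPS DMSO libraries, mast cell and basophil markers summed to 28.2, 28.9 and 53.1 CPM and dendritic cell markers to 212, 210 and 271 CPM. Macrophage markers summed to 12060, 12200 and 9568 CPM there. In the 3 WT LPS defactinib libraries, dendritic cell markers summed to 78.3, 59.4 and 114 CPM and macrophage markers to 12780, 15060 and 10670 CPM. The part of these markers in the differences was not tested.

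LPS raised every one of the 10 genes in WT cells. The GBPs differed widely in size of response, with Gbp5 the steepest. Gbp5, which promotes inflammasome assembly, was at 27.1, 27.4 and 22.8 CPM in the 3 unstimulated libraries and at 1155, 1300 and 988 CPM after LPS, a log2 fold change of 5.48 ± 0.74 (SE, edgeR adjusted p = 2.84e-05). Gbp2, a GBP recruited to bacterial and parasite vacuoles, was already high, at 224, 215 and 209 CPM, and reached 1114, 1054 and 861 CPM (2.22 ± 0.39, adjusted p = 0.000277). The unstimulated and LPS libraries were thus apart for both genes, but Gbp2 rose 4.67-fold and Gbp5 44.6-fold. Gbp3 went from 44.0, 42.5 and 37.0 CPM to 347, 350 and 239 CPM (2.92 ± 0.50, adjusted p = 0.00026). Gbp4 went from 5.56, 4.97 and 5.57 CPM to 53.9, 59.3 and 31.8 CPM (3.17 ± 0.59, adjusted p = 0.000491). Gbp7, which links GBP responses to oxidant defence in phagocytes, went from 63.4, 62.8 and 52.0 CPM to 259, 307 and 242 CPM (2.18 ± 0.37, adjusted p = 0.000238). Replicate 3 of WT LPS DMSO was the lowest of its group for each of the 5 GBPs.

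The IRGs rose by 12.2-fold to 41.9-fold in the same comparison. Irgm1, a regulator whose loss impairs macrophage defence and autophagy, was at 46.9, 47.0 and 47.5 CPM before and at 588, 658 and 540 CPM after LPS (log2 fold change 3.66 ± 1.13, edgeR adjusted p = 0.0162). Irgm2, a regulator that restrains the caspase that senses LPS, went from 16.5, 16.5 and 14.3 CPM to 192, 212 and 174 CPM (3.61 ± 1.27, adjusted p = 0.0318). Igtp, also known as Irgm3, went from 6.91, 7.07 and 8.08 CPM to 96.8, 106 and 78.4 CPM (3.67 ± 0.86, adjusted p = 0.00289). These 3 regulators rose by nearly the same factor, between 12.2-fold and 12.7-fold. Ifi47, an IRG also known as Irgd, went from 19.4, 18.7 and 17.5 CPM to 343, 388 and 296 CPM (4.21 ± 0.92, adjusted p = 0.0018). The effector Iigp1 went from 0.918, 0.998 and 0.474 CPM to 25.2, 57.3 and 18.6 CPM (5.39 ± 1.04, adjusted p = 0.000677). Iigp1 had the widest spread of the 10 in WT LPS DMSO, where its highest library was 170% and its lowest 55.3% of the mean. Called higher were 10 of the 10 members, against 11.6% of all tested genes. The libraries of both groups did not overlap for 10 of the 10, against 31.8% of all tested genes for higher values. Leaving out any 1 of the 3 unstimulated libraries left 8 called, without Irgm1 and Irgm2. Of 28 alternatives, Irgm1 lost its call in 5 and Irgm2 in 7. The spread is shared by all 6 groups, so these standard errors also carry the spread of libraries outside this comparison. Dendritic cell markers in WT, all 6 of 6 detected, summed to 108 to 115 CPM before and 375 to 490 CPM after LPS. Over the 5 of them tested, the log2 fold change ran from -0.184 to 3.107. Neutrophil markers, all 8 of 8 detected, summed to 58.0 to 80.05 CPM and 121 to 237 CPM. The part of these markers in the differences was not tested.

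**Figure D2:**
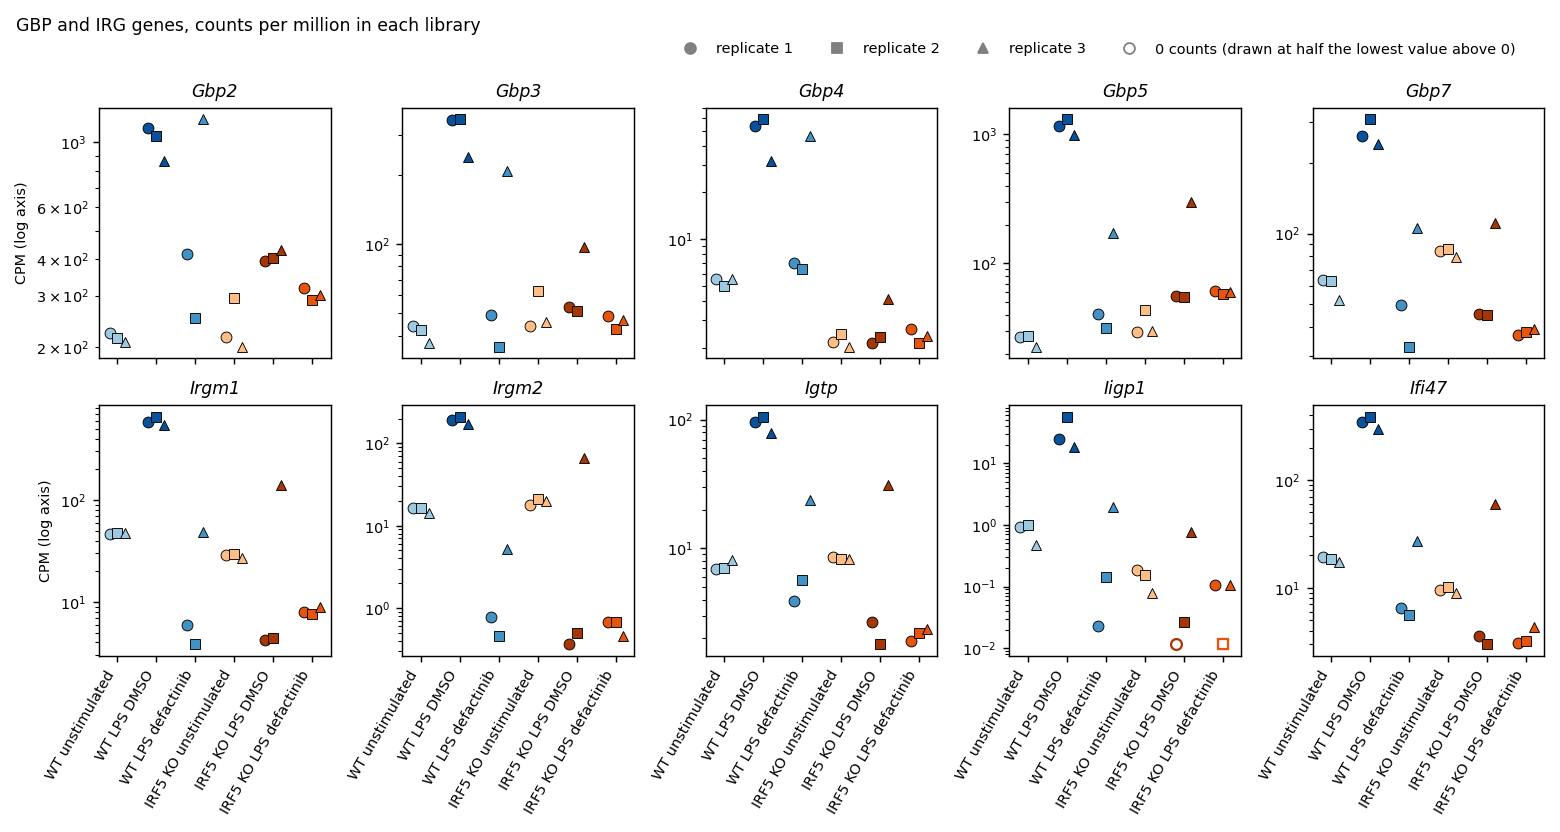
CPM (log axis, own scale in each panel) of the 10 members in each of the 18 libraries, by group on the x axis; circles, squares and triangles are replicates 1, 2 and 3, and hollow marks are libraries with 0 counts. WT LPS DMSO libraries lie above all unstimulated libraries in every panel, and the triangles of WT LPS defactinib and IRF5 KO LPS DMSO lie above the other marks of their groups.

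Defactinib lowered the LPS-stimulated level of 8 of the 10 members in WT cells, against 18.6% of all tested genes called lower. All 5 IRGs were among the 8, with Irgm2 the lowest in log2 fold change over the 3 libraries and Iigp1 without replicate 3, an order that was not tested. Irgm2 was at 0.767, 0.457 and 5.27 CPM with defactinib, which is 0.398%, 0.237% and 2.73% of the mean of WT LPS DMSO (log2 fold change -6.49 ± 1.48, edgeR adjusted p = 0.00177). Iigp1 was at 0.0233, 0.144 and 1.98 CPM, of which the lowest is 1 read pair (-5.58 ± 1.07, adjusted p = 0.000475). Irgm1 was at 5.95, 3.85 and 48.6 CPM (-4.94 ± 1.20, adjusted p = 0.00281). For all 3, replicate 3 was the highest library and still lay far under the LPS DMSO libraries. Ifi47 was at 6.56, 5.63 and 27.2 CPM (-4.71 ± 0.95, adjusted p = 0.00071), and Igtp at 3.88, 5.73 and 23.7 CPM (-3.08 ± 0.84, adjusted p = 0.00594).

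Of the GBPs, 3 of 5 were called lower with defactinib. Gbp5 was at 41.1, 31.5 and 173 CPM, or 3.58%, 2.75% and 15.04% of the WT LPS DMSO mean (log2 fold change -3.81 ± 0.68, edgeR adjusted p = 0.000278). Gbp7 was at 49.8, 32.9 and 106 CPM (-2.10 ± 0.37, adjusted p = 0.000252). Gbp3 was at 49.0, 35.8 and 208 CPM (-1.68 ± 0.48, adjusted p = 0.00801). For these 3 genes the defactinib and DMSO libraries did not overlap. Over all members, 8 of 10 did not overlap on the lower side, against 31.5% of all tested genes. Gbp2 and Gbp4 were the exceptions. Gbp2 was at 415, 252 and 1198 CPM, so that replicate 3 lay above all 3 LPS DMSO libraries (-0.70 ± 0.37, adjusted p = 0.119). Gbp4 was at 7.02, 6.47 and 46.1 CPM, with replicate 3 within the LPS DMSO range (-1.28 ± 0.55, adjusted p = 0.0576). Without replicate 3 of WT LPS defactinib, 10 of the 10 members were called lower, against 3070 of the 15663 genes tested, Gbp2 at -1.59 (edgeR adjusted p = 9.97e-06) and Gbp4 at -2.82 (adjusted p = 2.68e-06). Iigp1 was then at -8.60 (adjusted p = 5.95e-05), Irgm2 at -8.27 (adjusted p = 0.00207), Irgm1 at -6.91 (adjusted p = 0.000799), Ifi47 at -5.79 (adjusted p = 0.000601) and Igtp at -4.26 (adjusted p = 0.0017). Gbp5 was at -4.97 (adjusted p = 3.93e-05), Gbp3 at -2.87 (adjusted p = 2.55e-06) and Gbp7 at -2.69 (adjusted p = 1.87e-05). Dendritic cell markers, all 6 of 6 detected, summed to 375 to 490 CPM in WT LPS DMSO and to 59.4 to 114 CPM in WT LPS defactinib. Over the 5 of them tested, the log2 fold change ran from -3.745 to 1.424, so they did not move alike. Macrophage markers summed to 9368 to 9870 CPM and 10670 to 15060 CPM, with log2 fold changes from -1.65 to 1.143. The part of these markers in the differences was not tested.

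**Figure D3:**
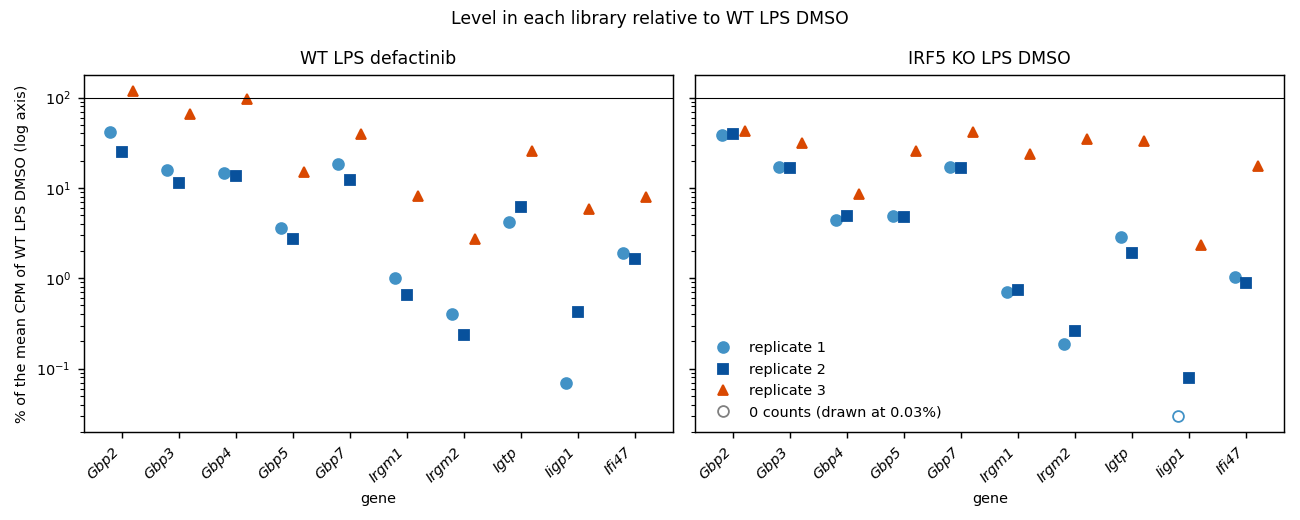
Level of each member in the 3 libraries of WT LPS defactinib (left) and of IRF5 KO LPS DMSO (right), as a percentage of its mean CPM in WT LPS DMSO (log axis; the line marks 100%). In both groups replicate 3 (orange), against replicates 1 and 2 (blue), is the highest library for each member, up to 119% for Gbp2 in WT LPS defactinib.

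With LPS and defactinib in WT cells, 4 of the 10 members were called higher than in WT unstimulated, against 9.10% of all tested genes, and all 4 were GBPs: Gbp4 (log2 fold change 1.89 ± 0.57, edgeR adjusted p = 0.012), Gbp5 (1.67 ± 0.63, adjusted p = 0.0365), Gbp2 (1.52 ± 0.38, adjusted p = 0.00386) and Gbp3 (1.24 ± 0.48, adjusted p = 0.0393). These calls rested on replicate 3. Without it none of the 4 was called, with Gbp2 at 0.63 (adjusted p = 0.00862), Gbp5 at 0.51 (adjusted p = 0.438), Gbp4 at 0.34 (adjusted p = 0.282) and Gbp3 at 0.05 (adjusted p = 0.874), and 3 IRGs were called lower instead, against 2520 of the 15663 genes tested in that fit. Irgm2 was 0.0487, 0.0290 and 0.334 times its own unstimulated mean, so that all 3 libraries lay below it. Its log2 fold change was -2.88 ± 1.29 over the 3 libraries (adjusted p = 0.0729) and -4.67 without replicate 3 (adjusted p = 0.0311). Irgm1 was 0.126, 0.0817 and 1.03 times its unstimulated mean, and its log2 fold change was -1.28 ± 1.04 (adjusted p = 0.316) and -3.25 without replicate 3 (adjusted p = 0.0293). Iigp1 was the third, at 0.0292, 0.181 and 2.48 times its unstimulated mean. Leaving out any 1 WT unstimulated library left 2 members called higher. From unstimulated to LPS defactinib, neutrophil markers went from 58.0 to 80.05 CPM to 117 to 167 CPM, macrophage markers from 9752 to 10090 CPM to 10670 to 15060 CPM and mast cell and basophil markers from 3.71 to 3.96 CPM to 0.818 to 1.54 CPM, and their part in these differences was not tested.

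In the summed levels, the 5 GBPs stood at 326 to 364 CPM in WT unstimulated, 2362 to 3071 CPM in WT LPS DMSO and at 562, 359 and 1730 CPM in the 3 WT LPS defactinib libraries. The 5 IRGs stood at 87.9 to 90.6 CPM, at 1107 to 1422 CPM and at 17.2, 15.8 and 107 CPM in the same groups. In replicates 1 and 2 with defactinib the GBP sum was thus within or above the unstimulated range, and the IRG sum lay below it. The 3 IRF5 KO LPS defactinib libraries showed the same order, with GBP sums of 431 to 469 CPM beside 359 to 489 CPM unstimulated, and IRG sums of 13.6 to 16.1 CPM beside 64.3 to 69.2 CPM unstimulated. Gbp2 made up most of the GBP sum there, at 303 CPM on average. Not every GBP followed the sum, as Gbp7 lay below its unstimulated libraries in the 3 IRF5 KO LPS defactinib libraries and in replicates 1 and 2 of WT LPS defactinib. Whether GBPs and IRGs differ in this was not tested.

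**Figure D4:**
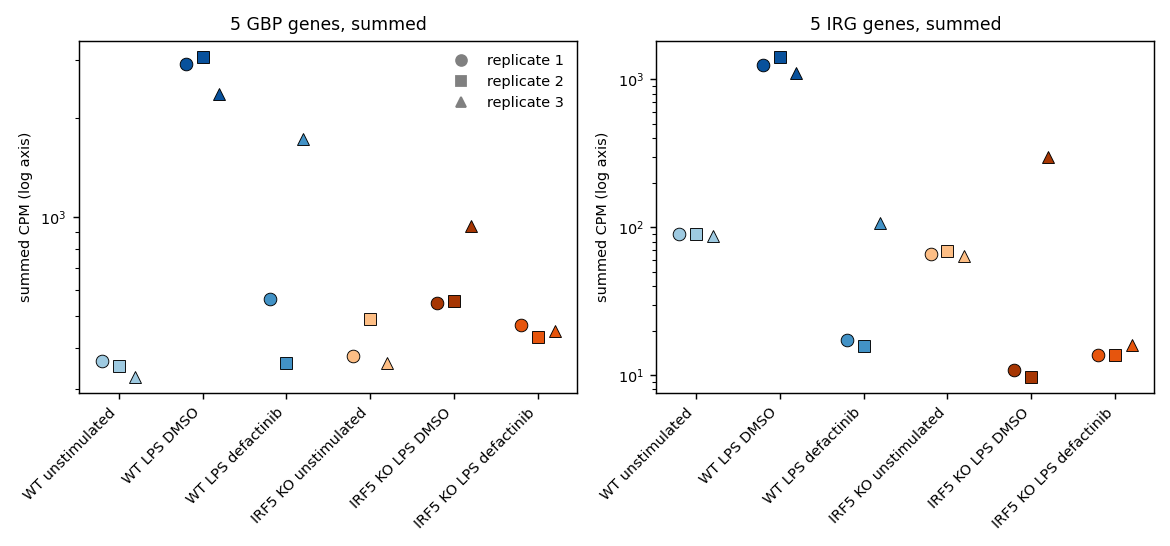
Summed CPM (log axis) of the 5 GBPs (left) and the 5 IRGs (right) in each library, by group; circles, squares and triangles are replicates 1, 2 and 3. IRG sums of the LPS defactinib groups lie at 13.6 to 17.2 CPM, below the unstimulated libraries at 64.3 to 90.6 CPM, except in WT replicate 3 at 107 CPM.

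In IRF5 KO cells replicate 3 differed from replicates 1 and 2 after LPS in all members but Gbp2. Gbp5 alone of the 10 members was called higher, against 7.07% of all tested genes, at 29.6, 44.0 and 29.95 CPM unstimulated and 55.8, 55.2 and 297 CPM after LPS (log2 fold change 1.98 ± 0.63, edgeR adjusted p = 0.0257). Without replicate 3 of IRF5 KO LPS DMSO it was at 0.68 (adjusted p = 0.293) and not called, nor was it when unstimulated replicate 1 or 3 was left out. Gbp2 was at 217, 294 and 201 CPM before and 392, 402 and 428 CPM after LPS, groups that did not overlap (0.78 ± 0.37, adjusted p = 0.107). Replicate 3 did not stand out for Gbp2, unlike for the other 9 members. Libraries did not overlap on the higher side for 2 members, Gbp2 and Gbp5, against 16.6% of all tested genes. Dendritic cell markers summed to 114 to 162 CPM before and 210 to 271 CPM after LPS and neutrophil markers to 70.3 to 82.3 CPM and 148 to 179.9 CPM, and their part in these differences was not tested.

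The IRGs were lower after LPS in replicates 1 and 2 and higher in replicate 3. Irgm2 was at 17.9, 21.1 and 19.8 CPM unstimulated and at 0.364, 0.504 and 67.3 CPM after LPS, and its log2 fold change was 0.22 ± 1.15 over the 3 (edgeR adjusted p = 0.893) and -5.50 without replicate 3 (adjusted p = 8.7e-05). Irgm1 was at 29.2, 29.4 and 27.3 CPM and then at 4.24, 4.40 and 140 CPM (0.80 ± 1.03, adjusted p = 0.557), and at -2.73 without replicate 3 (adjusted p = 0.016). Igtp was at 8.63, 8.33 and 8.32 CPM and then at 2.67, 1.80 and 31.02 CPM (0.50 ± 0.79, adjusted p = 0.638), and at -1.91 without it (adjusted p = 0.0201). In each of these genes the sign changed when 1 library was left out. Ifi47 was at 9.60, 10.2 and 8.87 CPM and then at 3.54, 3.00 and 60.1 CPM (1.22 ± 0.84, adjusted p = 0.256), and at -1.55 without it (adjusted p = 0.0325). Without replicate 3 these 4 IRGs were called lower and no member was called higher by edgeR, against 2639 and 1484 of the 15663 genes tested in that fit. Gbp7 was at 45.3, 44.9 and 111 CPM after LPS against 84.1, 86.1 and 79.7 CPM before (-0.31 ± 0.36, adjusted p = 0.504), and at -0.885 without replicate 3 (adjusted p = 0.0345, not called).

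After LPS with DMSO, all 10 members stood higher in WT cells than in cells without IRF5, against 25.8% of all tested genes called in either direction and 2195 of the 15663 called higher, and their libraries did not overlap, against 27.3% of all tested genes. Iigp1 was at 0, 0.0265 and 0.783 CPM in IRF5 KO, where the 0 allows up to 0.0727 CPM (3 read pairs, counting error only), and differed most (log2 fold change 6.83 ± 1.16, edgeR adjusted p = 0.000228). Gbp4 was at 2.13, 2.33 and 4.09 CPM in IRF5 KO (4.07 ± 0.62, adjusted p = 9.51e-05). Among the GBPs, Gbp4 thus differed more than Gbp5 (3.08 ± 0.66, adjusted p = 0.0014), Gbp3 (2.21 ± 0.49, adjusted p = 0.00177), Gbp7 (2.01 ± 0.37, adjusted p = 0.000448) and Gbp2 (1.31 ± 0.38, adjusted p = 0.00934), an order that was not tested. Of the IRGs, Ifi47 was at 3.94 ± 0.91 (adjusted p = 0.00242), Irgm1 at 3.58 ± 1.12 (adjusted p = 0.0153), Irgm2 at 3.08 ± 1.23 (adjusted p = 0.0481) and Igtp at 2.97 ± 0.83 (adjusted p = 0.00818). With IRF5 KO replicate 3 left out, 10 of 10 were still called and the differences of Irgm2 and Irgm1 were 8.79 and 7.11 (adjusted p = 1.7e-06 and 6.69e-05), those of Ifi47 and Igtp 6.71 and 5.38 (adjusted p = 2.23e-06 and 2.02e-05) that of Gbp5 4.37 (adjusted p = 8.23e-05) and that of Iigp1 11.1 (adjusted p = 4.9e-05), a fitted value that rests on 1 read pair in the IRF5 KO libraries left. The call of Irgm2 was near the threshold and was lost in 20 of 29 alternatives, with an adjusted p of up to 0.228. With replicates 1 and 2 left out instead, which leaves 1 library in the group and assumes that it varies like the other groups, 4 were called, namely Gbp4, Gbp7, Iigp1 and Ifi47. Dendritic cell markers summed to 375 to 490 CPM in WT LPS DMSO and to 210 to 271 CPM in IRF5 KO LPS DMSO, with all 6 of 6 detected in both. Over the 5 of them tested, the log2 fold change ran from -2.142 to 1.446, and their part in these differences was not tested. This comparison and that of defactinib in WT share the WT LPS DMSO libraries.

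**Figure D5:**
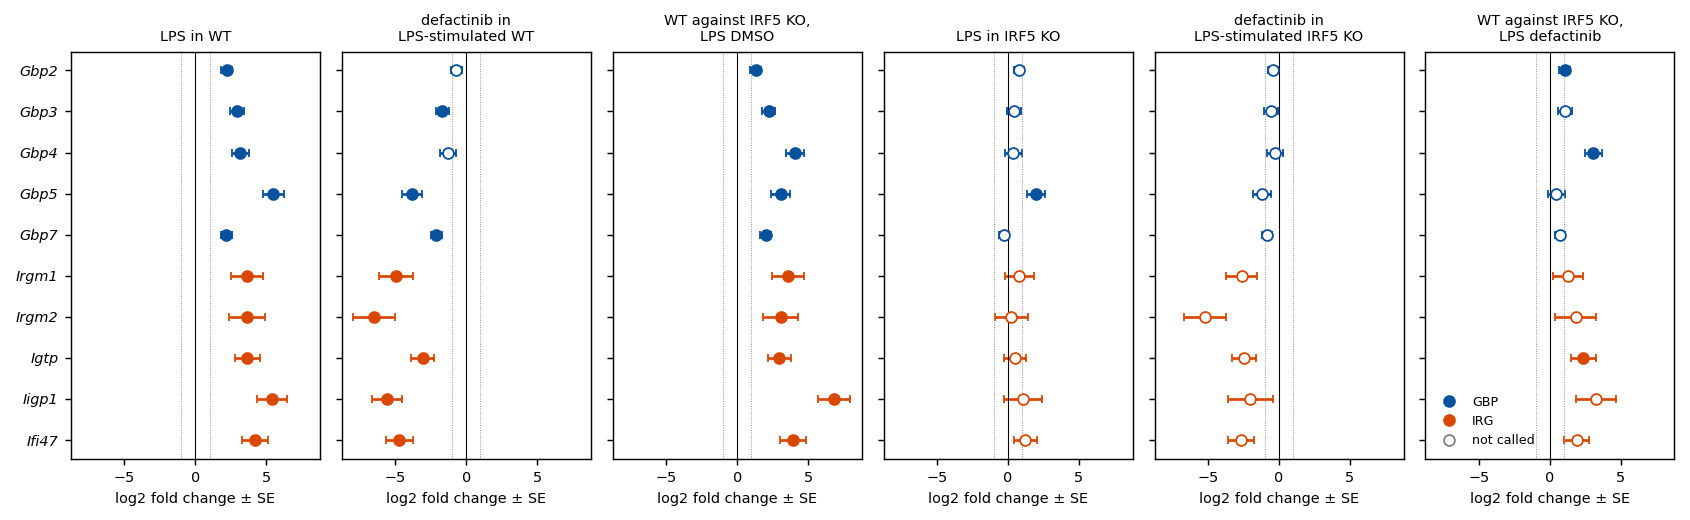
Log2 fold change ± SE (edgeR, n = 3 libraries per group) of each member in 6 comparisons; positive values are higher after LPS, with defactinib or in WT, filled marks are called, hollow marks are not, and dotted lines mark a log2 fold change of 1 in each direction. All 10 members are filled in LPS in WT and in WT against IRF5 KO after LPS DMSO, 8 in defactinib in WT, 1 in LPS in IRF5 KO and none in defactinib in IRF5 KO.

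Before LPS no member was called between the genotypes. By edgeR 0 of the 10 members were called between WT and IRF5 KO unstimulated cells, with 1 at an unadjusted p below 0.05 and 0 called by DESeq2 or limma-voom, against 3.80% of all tested genes called higher and 3.51% called lower. The 1 was Gbp4, at 5.56, 4.97 and 5.57 CPM in WT and 2.17, 2.46 and 2.03 CPM in IRF5 KO (log2 fold change 1.27 ± 0.58, adjusted p = 0.17). Iigp1 was at 0.187, 0.154 and 0.0787 CPM in IRF5 KO against 0.474 to 0.998 CPM in WT (2.47 ± 1.19, adjusted p = 0.204). The libraries did not overlap for 4 members on the higher side and 5 on the lower side, against 24.8% and 26.5% of all tested genes. Without replicate 3 of WT LPS defactinib, which enters this comparison through the shared spread and scaling alone, Gbp4 was called (1.28, adjusted p = 0.00179).

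Defactinib had no called effect on the 10 members in LPS-stimulated IRF5 KO cells by edgeR, where 5 had an unadjusted p below 0.05, and 0.760% of all tested genes were called lower. DESeq2 called 3 lower (Irgm2, Ifi47 and Igtp), with 481 of the 15663 genes called lower, and limma-voom 0, with 55. The 3 defactinib libraries lay close together, with Irgm2 at 0.680, 0.672 and 0.452 CPM, Irgm1 at 7.89, 7.57 and 8.82 CPM and Ifi47 at 3.05, 3.20 and 4.33 CPM. The fold changes follow replicate 3 of the DMSO group. For Irgm2 the log2 fold change was -5.22 ± 1.48 (edgeR adjusted p = 0.0638) and turned to 0.50 without that library (adjusted p = 0.82). For Ifi47 it was -2.67 ± 0.89 (adjusted p = 0.0963) and turned to 0.10 (adjusted p = 0.94), and for Irgm1 it was -2.62 ± 1.10 (adjusted p = 0.166) and turned to 0.90 (adjusted p = 0.558). Igtp was at -2.47 ± 0.86 (adjusted p = 0.105) and at -0.07 without it (adjusted p = 0.963). Gbp7, at 37.1, 37.9 and 39.0 CPM with defactinib, was at -0.82 ± 0.36 (adjusted p = 0.187) and at -0.25 without it (adjusted p = 0.694). Libraries did not overlap on the lower side for 3 members, against 12.5% of all tested genes. Leaving out replicate 1 or replicate 2 of the DMSO group gave 3 calls each, while 842 and 853 of the 15663 genes were called lower in these fits, against 119 with all libraries. Macrophage markers summed to 9568 to 12200 CPM in IRF5 KO LPS DMSO and to 17820 to 18770 CPM in IRF5 KO LPS defactinib. Their part in these differences was not tested.

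With LPS and defactinib, IRF5 KO cells stood below unstimulated IRF5 KO cells for Irgm2 (log2 fold change -5.00 ± 1.48, edgeR adjusted p = 0.0105) and Gbp7 (-1.13 ± 0.36, adjusted p = 0.0164), 2 of the 10 members against 16.2% of all tested genes called lower. Irgm1 (-1.82 ± 1.07, adjusted p = 0.162), Igtp (-1.97 ± 0.85, adjusted p = 0.0615) and Ifi47 (-1.44 ± 0.87, adjusted p = 0.174) were not called, although their libraries did not overlap. With replicate 3 of IRF5 KO LPS DMSO left out, a library that enters this comparison through the shared spread and scaling alone, these 3 were called as well (adjusted p = 0.0371, 0.00678 and 0.0202). Libraries did not overlap on the lower side for 5 members, against 36.9% of all tested genes. The count was 3 without replicate 1 or 2 of IRF5 KO LPS DMSO or without replicate 3 of WT LPS defactinib. From unstimulated to LPS defactinib, dendritic cell markers went from 114 to 162 CPM to 260 to 273 CPM, neutrophil markers from 70.3 to 82.3 CPM to 146 to 170.1 CPM and macrophage markers from 10240 to 14590 CPM to 17820 to 18770 CPM, and their part in these differences was not tested.

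Between the genotypes after LPS with defactinib, 3 of the 10 members were called higher in WT, against 8.45% of all tested genes. These were Gbp4 (log2 fold change 3.06 ± 0.60, edgeR adjusted p = 0.00103), Igtp (2.37 ± 0.86, adjusted p = 0.0419) and Gbp2 (1.04 ± 0.37, adjusted p = 0.0415). Gbp4 was at 7.02, 6.47 and 46.1 CPM in WT and at 2.65, 2.13 and 2.36 CPM in IRF5 KO, so that it was higher in all 3 WT libraries. It alone was still called without WT replicate 3 (1.52, adjusted p = 0.000477), while Igtp was at 1.19 (adjusted p = 0.3) and Gbp2 at 0.15 (adjusted p = 0.563). The count was 1 or 2 when any unstimulated library or any IRF5 KO LPS defactinib library was left out and 5 without WT LPS defactinib replicate 1 or 2. Dendritic cell markers summed to 59.4 to 114 CPM in these WT libraries and to 260 to 273 CPM in these IRF5 KO libraries. Over the 5 of them tested, the log2 fold change ran from -2.752 to 1.046. Mast cell and basophil markers summed to 0.818 to 1.54 CPM and 32.7 to 37.6 CPM. The part of these markers in the differences was not tested. Between WT LPS defactinib and IRF5 KO LPS DMSO, Gbp4 alone was called, higher in WT (2.79 ± 0.59, adjusted p = 0.00221, and 1.24 with adjusted p = 0.0027 without WT LPS defactinib replicate 3), against 5.26% of all tested genes called higher. In this comparison 4 members were called without WT LPS defactinib replicate 3, of which Irgm2, Irgm1 and Gbp5 were lower in WT, against 1618 of the 15663 genes called lower in that fit. None of these 3 was called over all libraries (edgeR adjusted p = 0.0597, 0.349 and 0.393), and each turned higher in WT without IRF5 KO LPS DMSO replicate 3. There were 3, all higher in WT, without IRF5 KO LPS DMSO replicate 3, and 2, in opposite directions, without replicate 1 or 2 of the latter group.

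The difference between the genotypes in their response to LPS was tested as an interaction. It was called for 4 of the 10 members, against 6.33% of all tested genes called higher, and all 4 were GBPs: Gbp5 (3.50 ± 0.89 on the log2 scale, edgeR adjusted p = 0.0159), Gbp4 (2.80 ± 0.81, adjusted p = 0.0287), Gbp3 (2.51 ± 0.67, adjusted p = 0.0201) and Gbp7 (2.49 ± 0.51, adjusted p = 0.00483). Positive values mean a larger rise in WT. Without replicate 3 of IRF5 KO LPS DMSO, Gbp5 was at 4.79 (adjusted p = 0.00034). The call of Gbp4 was lost in 12 of 29 alternatives, that of Gbp3 in 5, that of Gbp5 in 3 and that of Gbp7 in 2. The median over the 5 IRGs was 3.17, with none called by edgeR and 3 at an unadjusted p below 0.05, against a median of -0.06 over all genes tested. Over the 10 members DESeq2 called 6 and limma-voom 8. Without replicate 3 of IRF5 KO LPS DMSO, 9 members were called, with 2625 of the 15663 genes called higher, and without replicate 3 of WT LPS defactinib 7, with 1082 called higher. With replicate 1 or 2 of IRF5 KO LPS DMSO left out there were 2. For the effect of defactinib the interaction was called for Gbp5 (-2.63 ± 0.88, adjusted p = 0.0288), against 12.3% of all tested genes called lower, and negative values mean a larger fall in WT. For Gbp5 it was -3.77 without WT LPS defactinib replicate 3 and -3.92 without IRF5 KO LPS DMSO replicate 3 (adjusted p = 0.00147 and 0.000918). That count was 7 without WT LPS defactinib replicate 3, where 2119 of the 15663 genes were called lower, and 6 without IRF5 KO LPS DMSO replicate 3, where 2990 were. It was 0 without replicate 1 or 2 of WT LPS defactinib or of IRF5 KO LPS DMSO, without replicate 2 of WT LPS DMSO, and without replicate 1 of IRF5 KO LPS defactinib.

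Levels were compared between genes as CPM per kilobase of exon (FPKM). In WT LPS DMSO, Gbp2 was the most abundant at 401 ± 52.4 FPKM (mean ± SD, n = 3), followed by Gbp5 at 173 ± 23.6, Ifi47 at 138 ± 18.8, Irgm1 at 102.5 ± 10.2, Gbp3 at 95.6 ± 19.3, Irgm2 at 52.2 ± 5.13, Gbp7 at 48.0 ± 6.03, Igtp at 46.3 ± 6.87, Iigp1 at 10.8 ± 6.63 and Gbp4 at 6.45 ± 1.95 FPKM. The ranges of Gbp5 and Ifi47, of Irgm1 and Gbp3, of Irgm2, Gbp7 and Igtp, and of Iigp1 and Gbp4 overlapped between libraries. The libraries shift these genes together, and within each of the 3 libraries Gbp5 lay above Ifi47, Irgm2 above Gbp7 and Igtp, and Iigp1 above Gbp4, whereas the order of Irgm1 and Gbp3 and that of Gbp7 and Igtp changed from library to library. In WT unstimulated the order was different, and there the ranges of Irgm2, Gbp5 and Igtp overlapped. Gbp2 was again first at 85.9 ± 3.09 FPKM, then Gbp3 at 12.6 ± 1.12, Gbp7 at 10.6 ± 1.14, Irgm1 at 8.11 ± 0.06, Ifi47 at 7.49 ± 0.38, Irgm2 at 4.28 ± 0.35, Gbp5 at 3.88 ± 0.39, Igtp at 3.64 ± 0.31, Gbp4 at 0.72 ± 0.05 and Iigp1 at 0.255 ± 0.09 FPKM. Gbp5, among the lower genes before LPS, was next to Gbp2 after it.

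Of 17 further genes of both families, 15 passed the filter. In WT cells LPS raised 10 of the 15, against 11.6% of all tested genes, and defactinib lowered 11, against 18.6%, and raised 1, with medians of 2.57 and -4.13 on the log2 scale against -0.01 and 0.09 over all genes tested. After LPS with DMSO, 13 of the 15 were higher in WT than without IRF5, against 2195 of all 15663 genes tested. The 3 with the highest mean log2 CPM over all 18 libraries were 9930111J21Rik2 and Gm5431, gene models of the IRG family, and Gbp9. Gm5431 was at 149, 157 and 135 CPM in WT LPS DMSO and at 1.56, 1.13 and 9.58 CPM with defactinib, beside 23.01 to 25.7 CPM unstimulated (defactinib -5.17 ± 1.09, edgeR adjusted p = 0.00102, and -6.75 with adjusted p = 0.00059 without replicate 3). 9930111J21Rik2 was at 135, 156 and 142 CPM, at 4.16, 2.86 and 12.95 CPM and at 39.5 to 45.5 CPM in the same groups (-4.44 ± 0.89, adjusted p = 0.000681, and -5.345 without replicate 3). Both thus lay below their unstimulated libraries with defactinib, as Irgm2 did. Gbp9 was at 23.8, 31.8 and 15.1 CPM in WT LPS DMSO and at 8.19, 6.28 and 36.7 CPM with defactinib, where replicate 3 was the highest of all 6 (-0.47 ± 0.47, adjusted p = 0.409, and -1.69 with adjusted p = 0.000108 without it). The gene raised by defactinib was Gbp8, named after its values were seen, at 2.30, 4.04 and 2.11 CPM and then 3.88, 4.62 and 11.4 CPM (1.24 ± 0.37, adjusted p = 0.00966), and it was not called without replicate 3 (0.61, adjusted p = 0.092).

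Of 20 genes that make or carry the interferon signal, 19 passed the filter, and in WT LPS raised 9, against 11.6% of all tested genes, and defactinib lowered 11, against 18.6%. Ifnb1, which encodes interferon-β, was at 81.9, 54.5 and 69.1 CPM in WT LPS DMSO and at 37.7, 21.8 and 6.42 CPM with defactinib (log2 fold change -1.64 ± 0.42, edgeR adjusted p = 0.00415). Its lowest library was replicate 3, the library with the highest GBPs and IRGs of its group. Irf1, an interferon regulatory factor that acts early after LPS, was at 543, 622 and 570 CPM and fell to 22.8, 19.1 and 18.96 CPM (-4.83 ± 0.45, adjusted p = 6.89e-07), alike in all 3 libraries. Irf7, which amplifies the interferon response, was at 240, 268 and 174 CPM and then at 16.7, 10.7 and 885 CPM (0.42 ± 1.08, adjusted p = 0.756), and at -4.04 without replicate 3 (adjusted p = 0.00013). Stat2 was at 508, 631 and 415 CPM and then at 79.2, 65.9 and 241 CPM (-2.01 ± 0.46, adjusted p = 0.00175), and at -2.82 without replicate 3 (adjusted p = 6.59e-05). Irf9 was at 165, 185 and 160 CPM and then at 16.8, 13.6 and 49.2 CPM, beside 54.6 to 56.7 CPM unstimulated (-2.68 ± 0.63, adjusted p = 0.00217), and at -3.47 without replicate 3 (adjusted p = 0.000799). In IRF5 KO LPS DMSO, replicate 3 was the highest library for Irf1 (51.4, 50.5 and 213 CPM), unlike replicate 3 of WT LPS defactinib. It was also the highest for Irf7 (9.77, 8.99 and 48.3 CPM) and Irf9 (11, 11.2 and 78.6 CPM) and the lowest for Ifnb1 (32.8, 32.2 and 18.6 CPM). LPS in WT raised Ifnb1, Irf1, Irf7, Stat2 and Irf9, with Irf1 at 4.19 ± 0.43 (adjusted p = 2.23e-06).

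The genes most like the members over the 18 libraries, by Pearson's r between log2 CPM and the mean over the 10 members, were Ifi208 (r = 0.991), Ddx58 (0.9903), Gtf2f1 (0.988), Slfn8 (0.987) and Ifi209 (0.986). Libraries of a group are not independent of each other in this measure, and all 18 share the same 6 conditions, so r is a description. Slfn8, of the Schlafen family, was at 436 ± 52.5 CPM (mean ± SD, n = 3) in WT LPS DMSO and at 14.2 ± 1.14 CPM unstimulated. Ifi209, a neighbour of Ifi208 in the family of interferon-inducible nucleic acid sensors, was at 806 ± 123 CPM and 37.2 ± 1.76 CPM. Ddx58, which encodes the RNA sensor RIG-I, was at 282 ± 29.1 CPM and 41.8 ± 3.05 CPM. Gtf2f1, a subunit of a general transcription factor, moved least of the 5, at 193 ± 14.3 CPM and 95.2 ± 1.37 CPM.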

How the data were processed

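RNA of 18 BMDM libraries was sequenced by the authors as read pairs, aligned with STAR to mm10 and counted per gene with featureCounts 1.6.3, reverse stranded and from unique pairs only. The annotation release is not given in the sources used here. The deposited table holds raw counts per gene and each gene's exon length. Counts were tested with edgeR 4.0.16 (R 4.3.3): genes kept by filterByExpr, TMM scaling, 6 group means over all 18 libraries, a robust quasi-likelihood F test and Benjamini-Hochberg adjustment over all 15663 genes. Calls needed an adjusted p below 0.05 together with an absolute log2 fold change above 1, the thresholds of the study. The standard error is the log2 fold change divided by the square root of F. Symbols were given for 50376 of 50600 gene rows. The pipeline was tested on simulated data.

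The members and all gene lists were chosen with earlier results of these data known. Named were the 10 members, Irf5, Ifnb1, Stat2, Irf1, Irf7 and Irf9, the 3 tested genes of highest mean log2 CPM from each other list, and the 5 genes most like the members by Pearson's r, and genes added later are marked in the text. A gene that this rule also names is not reported here. Likeness used a prior count of 2. Alternatives were DESeq2 1.42.0, its size factors, limma-voom (limma 3.58.1), library size alone, no filter, no fold change threshold, only the groups compared, a replicate block and each library left out, and, added after the data were seen, the fold change tested inside the model and a pair of libraries left out together. Total counts ran from 39282181 to 61949143 per library, and precision of low genes is limited by counting. Promoters are from RefSeq, and 6 of the 9 entries of members matched a transcript of the same gene in their first 30 transcribed bases. Iigp1 has no sequence printed.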

Additional observations from a re-analysis of the deposited data

Results flagged for a closer look

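The response to LPS differed between WT and IRF5 KO cells for 4 members by the interaction test of edgeR over all genes, with n = 3 libraries in each of 4 groups, against 6.33% of all tested genes called in that direction. The differences on the log2 scale were 3.50 for Gbp5, 2.80 for Gbp4, 2.51 for Gbp3 and 2.49 for Gbp7, all larger in WT. The count was 2 without replicate 1 or 2 of IRF5 KO LPS DMSO, and 0 without both of these or with the fold change tested inside the model. Gbp4 lost its call in 12 of 29 alternatives and Gbp7 in 2. The response to defactinib after LPS differed between the genotypes for Gbp5, by -2.63 on the log2 scale, with the larger fall in WT, 1 of the 10 members against 12.3% of all tested genes. This count was 0 without replicate 1 or 2 of WT LPS defactinib or of IRF5 KO LPS DMSO, among other alternatives. Both tests use the WT and IRF5 KO LPS DMSO libraries, so the values of Gbp5 share samples.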

How the results depend on the processing

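Over all members, comparisons and alternatives run, 3064 values kept their direction and their side of the threshold, 151 lost and 126 gained a call, and 79 changed sign. Of the 1820 of them that belong to fold changes printed above, 1591 kept both, 151 lost and 56 gained a call, and 22 changed sign. Of 1170 values of other named genes, 1099 kept both, 52 lost and 14 gained a call, and 5 changed sign. Unless stated, the cause was not tested. LPS in WT (10 members called, 8 to 10 with 1 library left out) and defactinib in WT (8, and 8 to 10) stayed within 1.5 times under each alternative run.

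With 1 library left out, the count was 0 to 4 for LPS in IRF5 KO, 0 to 3 for defactinib in IRF5 KO, 0 to 1 between unstimulated genotypes, 9 to 10 between genotypes after LPS DMSO and 1 to 5 after LPS defactinib. It was 2 to 5 for LPS with defactinib against unstimulated in WT and 2 to 5 in IRF5 KO, 1 to 4 for WT LPS defactinib beside IRF5 KO LPS DMSO, 2 to 9 for the interaction with LPS and 0 to 7 for that with defactinib. For LPS in IRF5 KO the count was 0 with no filter, with the fold change tested inside the model, with limma-voom and with only the groups compared, 2 without IRF5 KO LPS DMSO 1 and 2, and 4 (all lower) without both libraries that stood apart. For defactinib in IRF5 KO it was 3 by DESeq2 and 6 without IRF5 KO LPS DMSO 1 and 2. Between unstimulated genotypes it was 2 with only the groups compared and 2 without both libraries that stood apart. Between genotypes after LPS DMSO it was 6 inside the model, 6 with only the groups compared and 4 without IRF5 KO LPS DMSO 1 and 2. After LPS defactinib it was 1 with no filter, the replicate block, the test inside the model and limma-voom. For LPS with defactinib against unstimulated in WT it was 2 with library size alone, no filter and limma-voom, 0 inside the model and 1 with only the groups compared. In IRF5 KO it was 0 inside the model, 5 with only the groups compared and 5 without both libraries. For WT LPS defactinib beside IRF5 KO LPS DMSO it was 2 by DESeq2, 0 with only the groups compared, 4 without IRF5 KO LPS DMSO 1 and 2 and 2 without both libraries. For the interaction with LPS it was 1 with no filter, 0 inside the model, 8 by limma-voom, 0 without IRF5 KO LPS DMSO 1 and 2 and 10 without both libraries. For that with defactinib it was 0 with library size alone, no filter, the test inside the model, only the groups compared and without IRF5 KO LPS DMSO 1 and 2, then 3 with the block, 2 by DESeq2, 4 by limma-voom and 10 without both libraries.

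Among the printed fold changes, signs changed in IRF5 KO and for 2 other genes, and among those not printed also in other comparisons, such as Gbp7 for LPS with defactinib against unstimulated in WT. For LPS in IRF5 KO, Ifi47 was at -0.013 by limma-voom, at -1.545 without both libraries and ran from -1.55 to 1.75 with 1 library left out. Igtp was at -0.13 with the replicate block, -0.535 by limma-voom, -1.91 without both and -1.91 to 1.02 with 1 left out. Irgm1 was at -0.26 with the block, -0.91 by limma-voom, -2.73 without both and -2.73 to 1.36. Irgm2 was at -0.90 with the block, -2.79 by limma-voom, -5.50 without both and -5.50 to 0.81. Gbp7 was at 0.43 without IRF5 KO LPS DMSO 1 and 2. For defactinib in IRF5 KO without both libraries, Ifi47 was at 0.091, Irgm1 at 0.90 and Irgm2 at 0.51, and with 1 left out they ran from -3.20 to 0.10, -3.18 to 0.90 and -5.81 to 0.50. Irf7 with defactinib in WT was at -0.74 with the block, -2.07 by limma-voom, -4.05 without both and -4.04 to 1.01. Gabarap with LPS in WT, at 0.25 in the main analysis, was at -0.13 with library size alone. Library size alone moved the median of all genes by LPS in WT to -0.38 and changed the calls from 1819 higher and 1521 lower to 1295 and 2834. For LPS in IRF5 KO that median was -0.23, with 901 higher and 1685 lower calls against 1108 and 983. For defactinib in WT it was 0.29, with 2350 and 2426 against 1636 and 2916, and between genotypes after LPS it was -0.30. Libraries with the same number correlated in 4 of 45 pairs above 0.1 (median 0.00455). Such correlations cannot show whether the numbers pair animals, which the series does not name, so the block is not read as a paired test. Counts of 0 to a few read pairs limit Iigp1 with defactinib and in IRF5 KO.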

Other observations

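Proteins that act with GBPs and IRGs were described as further lists, without any explanation of their values. Of 10 genes of autophagy conjugation, which places IRGs on membranes, the median log2 fold change for LPS in WT was -0.25, against -0.01 over all genes tested. For defactinib in WT that median was 0.448, against 0.086. By edgeR 8 of the 10 had an adjusted p below 0.05, against 8922 of the 15663 genes tested, and 0 were called higher. Defactinib lowered 1, in the direction opposite to the median, against 18.6% of all tested genes. This was Atg16l1, named after its values were seen. Atg16l1 was at 32.3, 38.7 and 30.6 CPM in WT LPS DMSO and at 14.4, 14.8 and 16.1 CPM with defactinib (log2 fold change -1.17 ± 0.17; edgeR adjusted p = 5.01e-05). Gabarap, an ATG8 protein, was at 624, 598 and 635 CPM and then at 812, 820 and 707 CPM (0.33 ± 0.13; adjusted p = 0.0411, not called), and its log2 fold change for LPS in WT was 0.25 ± 0.13 (adjusted p = 0.139).

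Of 6 genes of cytosolic sensing, LPS in WT raised 3, against 11.6% of all tested genes, and defactinib lowered 3, against 18.6%. Nlrp3, an inflammasome sensor, was at 116 to 124 CPM unstimulated, at 377, 352 and 419 CPM in WT LPS DMSO and at 78.8, 47.8 and 61.0 CPM with defactinib (-2.61 ± 0.18; edgeR adjusted p = 2.56e-08). Replicate 3 of WT LPS defactinib, where the members were high, was within the range of its group for Nlrp3. Casp4, which encodes the mouse caspase that binds LPS and was named after its values were seen, was at 95.4, 111 and 89.7 CPM and then at 26.6, 20.8 and 52.9 CPM (-1.56 ± 0.23; adjusted p = 4.55e-05, and -2.04 without replicate 3 of WT LPS defactinib). Gsdmd, the pore-forming gasdermin, was at 125, 150 and 118 CPM and then at 98.2, 107 and 137 CPM (-0.20 ± 0.12; adjusted p = 0.149), and Pycard, the inflammasome adaptor, at 87.5, 65.6 and 79.5 CPM and then at 93.9, 102 and 128 CPM (0.48 ± 0.12; adjusted p = 0.00373, not called).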
